A study of Mus musculus with 2 samples.

Results

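The circadian clock genes described here are the 10 genes Arntl, Clock, Per1, Per2, Per3, Cry1, Cry2, Nr1d1, Nr1d2 and Dbp, chosen by name among 21938 protein-coding genes of the GENCODE M21 annotation. All 10 were found. The assay was DNase-seq, which maps accessible chromatin through the cuts that the nuclease DNase I makes in DNA free of nucleosomes. The tissue was hippocampus of male B6CASTF1/J mice, the offspring of a cross between C57BL/6J and CAST/EiJ, at 10 days of age, and the labels describe each sample as holding 3 males. There was 1 group of 2 libraries, replicate 1 and replicate 2, with no treatment, second genotype or control group. The donor label is the same for both, and the labels do not say whether any animals are shared, so the spread covers these samples only. The sources used here do not give the hour of collection.

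The mammalian clock is a loop of transcription in almost every cell. Bmal1, the product of Arntl, pairs with Clock and binds E-boxes (CACGTG and relatives) in the genes of its own repressors, the period (Per) and cryptochrome (Cry) proteins. A second loop runs through the nuclear receptors Nr1d1 and Nr1d2 (Rev-erb alpha and beta), which are targets of E-boxes and repress Arntl through a site called the RORE. Dbp is a classical output gene that is itself driven by E-boxes, and its protein acts on D-boxes, which also occur in Per genes. In the hippocampus the clock has been linked to daily changes in memory, whereas the pacemaker for the whole animal lies in the suprachiasmatic nucleus of the hypothalamus.

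Sequences were read from RefSeq GRCm38 at regions present in both libraries, on the strand of the gene, 5′ to 3′. They are the C57BL/6J sequence, and the CAST/EiJ copy was not used. These 5 are shown first because they lie at gene starts and carry the boxes named in the results below. Capitals mark E-boxes (CACGTG) in Per1, E-prime boxes (CACGTT, or AACGTG on the other strand) and a D-box (TTATGTAA) in Per2, D-boxes in Per3, an E-prime box followed by an E-box in Cry1, and CCAAT or its reverse ATTGG in Arntl.
Per1, upstream of the first exon, chr11:69094881-69095180, plus strand: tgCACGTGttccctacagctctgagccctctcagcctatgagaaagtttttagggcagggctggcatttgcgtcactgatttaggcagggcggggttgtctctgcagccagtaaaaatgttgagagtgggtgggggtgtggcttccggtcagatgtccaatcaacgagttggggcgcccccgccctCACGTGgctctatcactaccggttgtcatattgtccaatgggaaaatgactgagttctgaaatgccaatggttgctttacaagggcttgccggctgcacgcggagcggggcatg
Per2, start of the first exon and the bases before it, chr1:91459301-91459600, minus strand: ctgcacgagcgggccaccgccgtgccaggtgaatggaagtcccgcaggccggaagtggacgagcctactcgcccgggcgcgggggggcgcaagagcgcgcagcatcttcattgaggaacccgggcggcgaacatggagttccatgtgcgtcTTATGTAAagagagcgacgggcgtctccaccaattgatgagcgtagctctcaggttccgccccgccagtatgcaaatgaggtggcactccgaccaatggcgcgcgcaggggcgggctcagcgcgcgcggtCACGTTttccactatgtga
Per3, start of the first exon and the bases before it, chr4:151044651-151044950, minus strand: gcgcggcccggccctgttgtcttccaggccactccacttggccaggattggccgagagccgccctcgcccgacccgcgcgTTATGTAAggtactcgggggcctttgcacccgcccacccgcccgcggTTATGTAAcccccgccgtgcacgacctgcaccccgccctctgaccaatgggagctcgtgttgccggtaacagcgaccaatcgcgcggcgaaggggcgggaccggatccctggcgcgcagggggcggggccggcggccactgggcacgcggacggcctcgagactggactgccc
Cry1, upstream of the first exon, chr10:85185091-85185390, minus strand: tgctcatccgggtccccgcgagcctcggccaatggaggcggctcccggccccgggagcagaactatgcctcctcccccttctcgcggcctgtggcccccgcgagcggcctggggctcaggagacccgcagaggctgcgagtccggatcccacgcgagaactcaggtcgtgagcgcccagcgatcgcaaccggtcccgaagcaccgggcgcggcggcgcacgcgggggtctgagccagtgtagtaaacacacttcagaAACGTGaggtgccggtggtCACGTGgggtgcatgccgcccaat
Arntl, upstream of the first exon, chr7:113207141-113207440, plus strand: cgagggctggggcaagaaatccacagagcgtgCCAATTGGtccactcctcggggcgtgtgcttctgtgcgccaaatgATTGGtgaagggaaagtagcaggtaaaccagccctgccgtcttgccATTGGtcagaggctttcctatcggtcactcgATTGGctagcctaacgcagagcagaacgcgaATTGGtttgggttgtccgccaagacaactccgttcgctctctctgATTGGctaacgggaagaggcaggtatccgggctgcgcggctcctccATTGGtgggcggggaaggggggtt

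The next 4 sequences lie inside genes and hold most of the E-boxes found. The Nr1d1 and Nr1d2 regions are intronic, as is that of Cry2. The Dbp region is intronic in the coding transcripts and exonic in a retained-intron transcript. Capitals mark E-boxes in all 4, the D-box (TTACATAA, the reverse strand of TTATGTAA) in Nr1d1 and Nr1d2, and an E-prime box (AACGTG) in Dbp.
Nr1d1, intron, chr11:98774021-98774220, minus strand: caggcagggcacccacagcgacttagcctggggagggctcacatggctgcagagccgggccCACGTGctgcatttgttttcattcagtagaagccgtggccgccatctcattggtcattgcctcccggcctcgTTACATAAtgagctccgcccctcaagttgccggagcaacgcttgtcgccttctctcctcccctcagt
Nr1d2, intron, chr14:18238401-18238700, minus strand: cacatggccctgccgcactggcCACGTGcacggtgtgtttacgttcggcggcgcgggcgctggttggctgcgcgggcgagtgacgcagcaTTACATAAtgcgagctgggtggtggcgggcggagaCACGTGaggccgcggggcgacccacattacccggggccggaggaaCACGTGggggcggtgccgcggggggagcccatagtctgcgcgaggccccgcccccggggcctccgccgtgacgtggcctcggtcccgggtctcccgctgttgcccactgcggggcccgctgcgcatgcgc
Dbp, gene body, chr7:45707641-45707860, plus strand: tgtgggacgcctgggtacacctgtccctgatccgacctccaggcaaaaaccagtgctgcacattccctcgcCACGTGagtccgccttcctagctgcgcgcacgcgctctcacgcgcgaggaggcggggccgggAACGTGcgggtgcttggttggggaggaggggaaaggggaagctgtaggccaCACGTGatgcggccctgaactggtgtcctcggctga
Cry2, intron, chr2:92423821-92424040, minus strand: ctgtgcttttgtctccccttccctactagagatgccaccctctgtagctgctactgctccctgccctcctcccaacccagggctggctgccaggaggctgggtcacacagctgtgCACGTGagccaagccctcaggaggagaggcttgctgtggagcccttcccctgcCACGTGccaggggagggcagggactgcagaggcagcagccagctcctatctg

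All 10 clock genes had an accessible start in both libraries. A start was called accessible where a region of the shorter of the authors' region lists lay within 1000 bp of an annotated transcript start. By the same rule 59.6% of all protein-coding genes were accessible in replicate 1, 64% in replicate 2 and 59.3% in both, and 59.2% had a start region that overlapped between the libraries by at least 1 bp. Clock genes are active in most cell types, and in bulk tissue fewer accessible cells and less accessibility per cell cannot be told apart. Against the tissue label, markers of hippocampal and forebrain neurons were accessible at 7 of 7 genes in each library, glial markers at 4 of 4 in replicate 1 and 3 of 4 in replicate 2, and markers of other organs at 1 of 5 and 2 of 5 (Ins2 in replicate 2). Alb, Apoa1 and Acta1 of liver and muscle had no start region in either library, while Ckm of muscle was open in both.

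The clock genes also stood high among the open genes. Each region carries a height, the authors' own value, in a unit whose scaling the labels do not state. The highest start region per gene had a median of 5.77 in replicate 1 and 6.03 in replicate 2 over the 10 clock genes, against 2.59 and 3.14 over all accessible protein-coding genes. The median clock gene sat at percentile 89.9 and 87.4 of those genes. No test was made, since the design holds 1 group, and these are descriptions of these libraries.

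**Figure D1:**
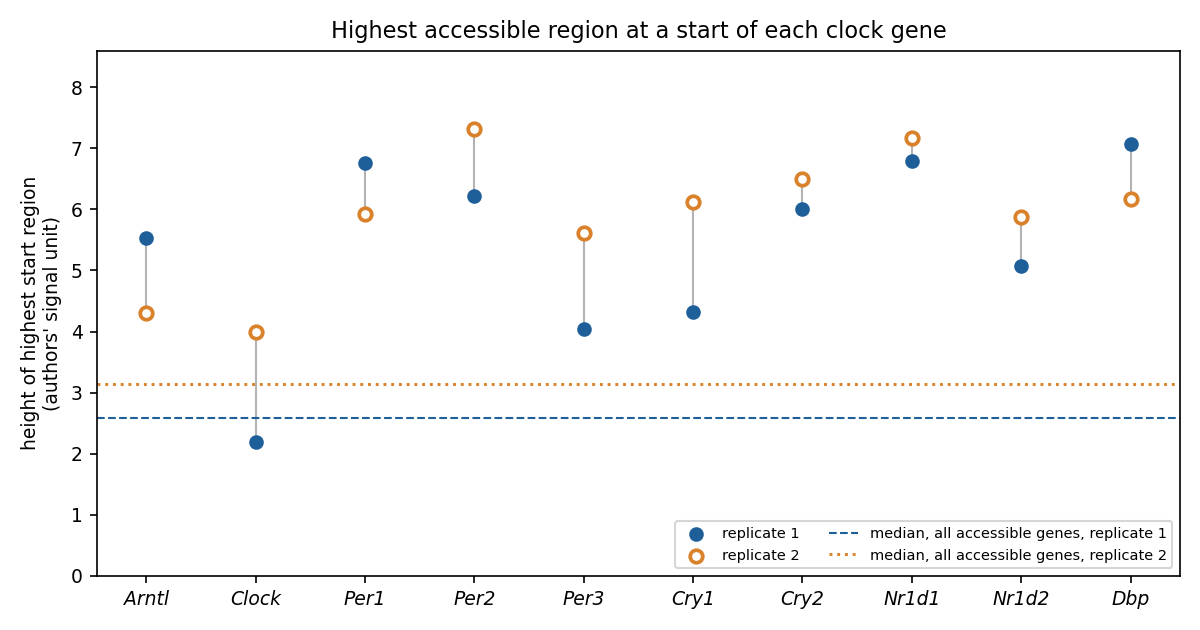
Height of the highest start region (authors' signal unit, vertical axis) of each clock gene (horizontal axis) in replicate 1 (filled) and replicate 2 (open), with the medians of all accessible protein-coding genes as lines. Every gene but Clock lies above both medians in both libraries, and Clock, with 2.19, lies below the replicate 1 median of 2.59.

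The activators differed from each other. Arntl, which encodes Bmal1, had a highest start region of 5.53 and 4.30 in replicates 1 and 2, averaging 4.92 ± 0.867 (SD, n = 2), at percentiles 88.4 and 68.4. Clock, the partner of Bmal1, whose region lay at chr5:76304521-76304840, had 2.19 and 3.99, a mean of 3.09 ± 1.27 (SD, n = 2), at percentiles 41.7 and 63.7. Clock was thus the lowest of the 10 in both libraries, and the only one below the median of open genes in either. The ratio of replicate 2 to replicate 1 was lowest at Arntl, 0.778, and highest at Clock, 1.82. Over all genes with a start region in both libraries the median ratio was 1.25, with 0.972 at the 10th and 1.64 at the 90th percentile, and Arntl, Per1 and Dbp lay below that range and Clock above it.

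Among the repressors, Per1, which is induced by light and neuronal signals, had 6.76 and 5.93, a mean of 6.34 ± 0.583 (SD, n = 2). Its highest region in replicate 2 was another one, at a downstream start, and the region at the first start had 6.76 and 5.49. Per2, a core repressor whose loss disrupts rhythms, had 6.22 and 7.32, a mean of 6.77 ± 0.776, and Per3, the least essential of the family in mice, had 4.05 and 5.61, a mean of 4.83 ± 1.10 (SD, n = 2). In both libraries Per3 was the lowest of the family. Cry1, a strong repressor of Bmal1 and Clock, had 4.32 and 6.12, a mean of 5.22 ± 1.27, and Cry2, its paralog, had 6.00 and 6.51, a mean of 6.25 ± 0.356 (SD, n = 2). Cry2 was higher than Cry1 in both libraries. Percentiles among open genes lay between 73.9 and 94.9 in replicate 1 and between 83.9 and 94.5 in replicate 2 for these 5 genes, with Per3 the lowest in each.

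Nr1d1 and the output gene Dbp were among the highest, and Nr1d2 lay in the lower part of the order. Nr1d1, whose region lay at chr11:98775261-98775520 over the first exon, had 6.79 and 7.17, a mean of 6.98 ± 0.272 (SD, n = 2), at percentiles 95.1 and 93.8. Nr1d2 had 5.08 and 5.88, a mean of 5.48 ± 0.569 (SD, n = 2), but these come from different regions, the intronic one in replicate 1 and the one at the start in replicate 2, which had 4.97 in replicate 1. Dbp, at chr7:45704781-45705100, had 7.07 and 6.17, a mean of 6.62 ± 0.639 (SD, n = 2). In descending order of the mean the genes ran Nr1d1, Per2, Dbp, Per1, Cry2, Nr1d2, Cry1, Arntl, Per3 and Clock. The ranges of mean ± SD overlapped for every neighbouring pair in that order, so the order was not taken as resolved between neighbours. These SDs also hold the general difference in height between the libraries. Within each library Dbp was above Per1, Cry2 above Nr1d2 and Per3 above Clock, and the other neighbours changed places. The values themselves did not overlap for Cry2 and Nr1d2 or for Per3 and Clock. Of the 10 genes, 7 were higher in replicate 2, and Arntl, Per1 and Dbp were lower.

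Not every annotated start had a called region. The 10 genes have 40 distinct starts, of which 29 had a region in both libraries and 11 in neither, against 48.8% of the 93513 starts of all protein-coding genes in both. The 48.8% includes the starts of genes with no accessible start at all, whereas each of the 10 genes had one. The share among starts of accessible genes alone was not computed. Of the 11 starts without a region, 8 belong only to non-coding transcript types such as retained introns. The other 3 start a protein-coding transcript inside Cry1, Arntl and Clock. None of the 11 had a region in the longer, more permissive lists either. At Per1, by contrast, all 6 starts were accessible, among them a second coding start whose region had heights of 3.78 and 5.93.

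The start regions were wide and held many footprints, short protected stretches that the authors called within accessible DNA. The highest shared start region of each clock gene had a median width of 310 bp in replicate 1 and 340 bp in replicate 2. Over all genes with a shared start region the medians were 240 and 260 bp. All start regions of a clock gene together held a median of 9 and 11.5 footprints, against 5 and 6 over accessible genes. In windows of equal length, 300 bp around the centre of the highest shared start region, the medians were 7 and 7 for the clock genes and 5 and 5 for 11685 such windows of all genes. GC content of these windows was close, with a median of 67% against 64.7%, and the extremes were Clock with 77.7% and 49 CpG and Per1 with 55.3% and 13 CpG. All 300 bases of each clock gene window had an authors' false discovery rate of 0.001 or less in both libraries, which was also so for 75.4% and 89.4% of all windows.

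The loci, which span each gene and its flanks of 10 kb, held 57 regions in replicate 1 and 97 in replicate 2 of the shorter lists, out of 54546 and 74278. There were 54 shared ones, counted in replicate 1. A median of 5.5 shared regions per clock gene stood against 2 over all protein-coding genes and 3 over those with a shared start region. Relative to length the clock gene loci held a median of 8.72 shared regions per 100 kb, against 3.47 over all genes and 5.04 over genes with a shared start region. The loci varied widely. Dbp and Per1 were at percentiles 99.8 and 99.6 of all genes with 31.9 and 28.8 shared regions per 100 kb, whereas Clock was at percentile 32.2 with 1.74, and Per3 and Nr1d2 were near the middle with 3.28 and 3.63.

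**Figure D2:**
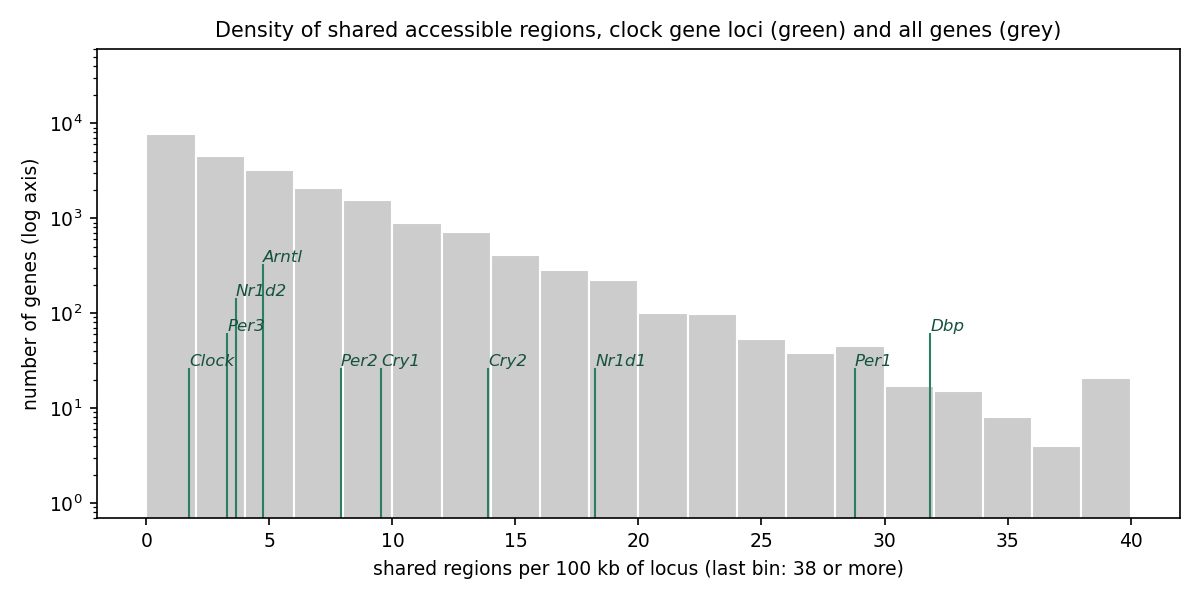
Number of protein-coding genes (log axis) by shared regions per 100 kb of locus (horizontal axis), with each clock gene marked by a green line whose height has no meaning. Clock genes span most of the range, from Clock at 1.74 to Dbp at 31.9.

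Part of this density belongs to neighbouring genes. Merged over both libraries, the loci held 98 separate stretches, of which 52 occurred in both libraries, 43 in replicate 2 alone and 3 in replicate 1 alone. Of the 52, 25 lay at a start of the clock gene, 7 at starts of other coding genes only and 20 at no coding start. The dense Dbp locus includes the starts of Rpl18 and Sphk2, with regions of 6.52 and 7.05 and of 5.46 and 5.60, and a region at the start of Car11. The Per1 locus reaches a start of Vamp2, where the region had 2.63 and 4.72, the Cry1 locus that of Mterf2 with 4.36 and 3.89, and the Per2 locus those of Hes6. The 20 stretches away from starts comprised 13 in introns, 4 upstream and 3 downstream of the gene.

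**Figure D3:**
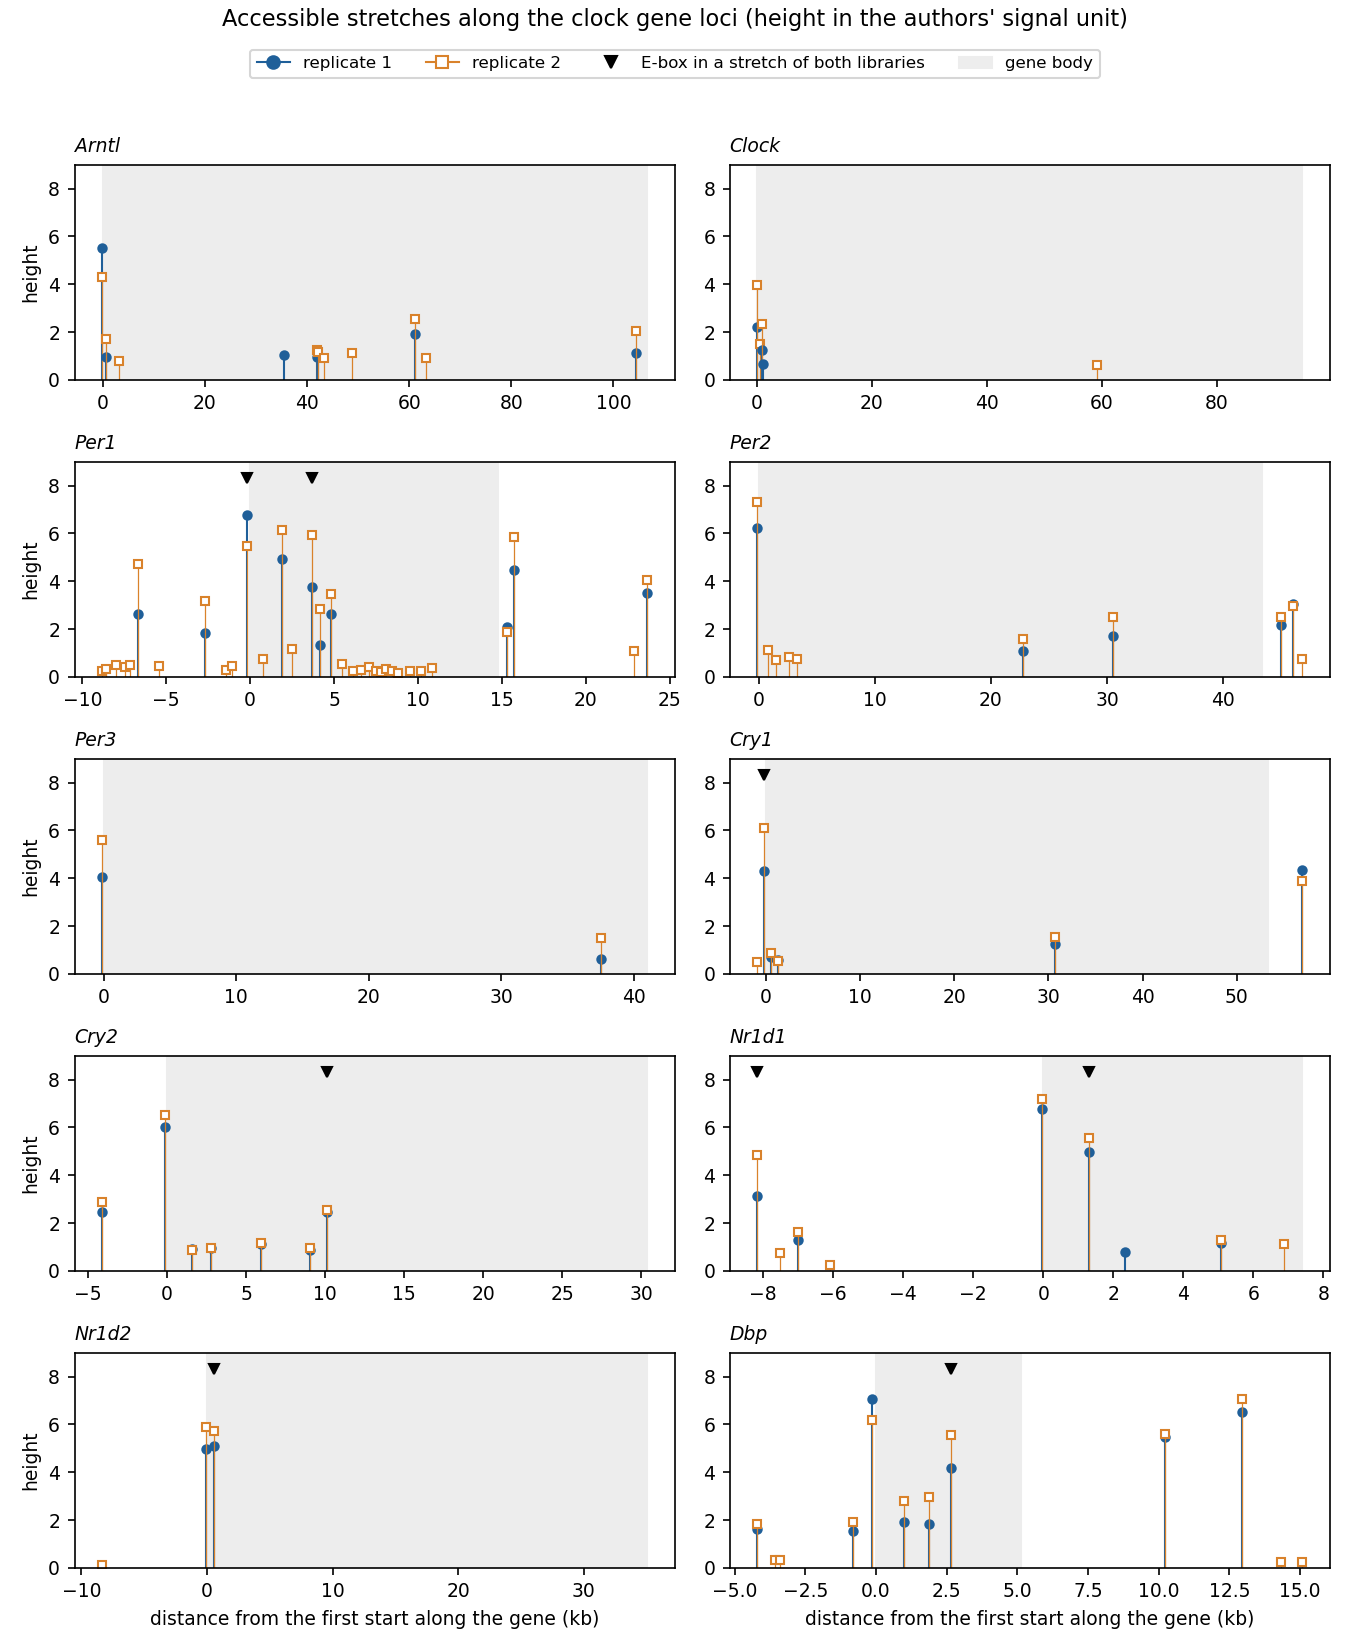
Height of each accessible stretch (vertical axis, authors' signal unit) by its distance from the first start along the gene (kb, horizontal axis), in replicate 1 (circles) and replicate 2 (squares), with the gene body in grey. Triangles mark stretches of both libraries that hold an E-box, which occur at Per1, Cry1, Cry2, Nr1d1, Nr1d2 and Dbp.

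Per1 had the most elements away from its starts, with 5 of its 10 shared regions at no coding start. An intronic region at chr11:69097001-69097280 had 4.93 and 6.16, and a region beyond the 3′ end, at chr11:69110841-69111020, had 4.46 and 5.86. Both were lower than the region at the first start in replicate 1 and higher in replicate 2. The intronic one held a CRE (TGACGTCA), the site through which the factor CREB answers cAMP. This CRE lay under a footprint in both libraries, as did 75.7% of the 733 CREs in shared regions of the genome. Throughout, a match is called under a footprint, or covered, where the 2 overlap by at least 1 bp, so the overlap can be partial. The libraries differed most in number at the Per1 locus, with 10 regions in replicate 1 and 34 in replicate 2, of which 24 had no counterpart. Those 24 were low, with a median height of 0.333 and a maximum of 1.17, and 2 of them overlapped the longer list of replicate 1. In the locus 19 of the 34 regions of replicate 2 were under 0.5, a range that holds 14.5% of the whole list of replicate 2 and 8.58% of that of replicate 1. The 28.8 regions per 100 kb given for Per1 count shared regions alone.

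Most other loci also held regions inside or before the gene. Nr1d1 had an intronic region of 4.97 and 5.55 and another upstream, at chr11:98783401-98783640, of 3.12 and 4.83. Nr1d2 had a pair of regions within its first kilobase, 4.97 and 5.88 at the start and 5.08 and 5.72 in the intron, and no other shared region in its locus. Cry2 had 4 shared regions away from its starts, the highest an intronic one of 2.45 and 2.55 and one upstream of 2.45 and 2.90. Arntl had 4, all intronic and none above 1.94 in replicate 1. Per2 had 2, both intronic and the higher at 1.71 and 2.50, Per3 had 1 intronic region, 0.616 in replicate 1, and Cry1 had 2 intronic regions, one of 1.25 and 1.53 and one of 0.578 and 0.557. Clock and Dbp had none beyond their own and their neighbours' starts. In the Cry1 count of 7 shared regions, 2 pairs of list entries each met a single region of replicate 2, and the entries of 1 pair overlap each other.

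Clock motifs were searched in the same windows, on both strands, as plain letters. In the 300 bp around the centre of the highest shared start region, an E-box (CACGTG) was found at 2 of the 10 genes, Per1 and Cry1, against 10.3% of all 11685 start windows. An E-prime box (CACGTT) was found at Cry1, Cry2 and Nr1d1, 3 of 10 against 5.26%. The E-prime box of Per2 printed above lies in its highest start region but just outside this window. The D-box (TTATGTAA or TTACGTAA) occurred at Per2 and Per3, 2 of 10 against 0.419%, and Per3 was the only one of the 11685 windows with more than 1 D-box. A match is a run of letters and not proof of a bound site, and a missing match says only that these letters are not in the window. Pairs of E-boxes or E-prime boxes 5 to 8 bases apart, a spacing known from some clock targets, were counted by these exact letters. Such a pair was in none of the 10 windows and in 0.0428% of all. A pair with a box that departs from these letters would be missed. So would a pair that reaches beyond the window, where the Per2 E-prime box lies.

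Arntl carried neither E-box, E-prime box nor D-box in its start window. It held 8 matches to CCAAT, the site of the factor NF-Y, of which a pair overlap in CCAATTGG, and 0.0171% of start windows held 8 or more. CCAAT was common at the other clock genes too, in 9 of 10 windows against 38.2%, the exception being Clock. A RORE, through which Rev-erb and Ror receptors act, was found in the start window of Dbp alone, 1 of 10 against 0.103%. A footprint overlapped part of this RORE in replicate 1 only, and the AGGTCA within it overlapped none in either library. That AGGTCA is also among the AGGTCA elements counted next. The CRE was in 0 of 10 windows against 3.94% of all, the GC box (GGGCGG) in 7 of 10 against 68.3%, the AGGTCA element in 2 of 10 against 9.24% and the CTCF motif in 0 of 10 against 2.47%.

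More clock motifs lay in the other shared regions of the loci, a comparison added after the data were seen. Of the 54 shared regions, 8 held an E-box (14.8%), against 7.04% of the 48179 shared regions of the genome. Those 8 belong to 6 genes, namely Per1, Cry1, Cry2, Nr1d1, Nr1d2 and Dbp. The share of all protein-coding genes with such a region in the locus was not computed. Their loci held a median of 2 shared regions, against 5.5 for the clock genes. The share of windows with an E-box was 10.3% in start windows of all genes. It was 10.4% in shared regions of 2.45 or higher in replicate 1, the lowest height among the 8. At 4 of the 54 regions, 7.41% against 0.504% of all shared regions and 1.08% of start windows, there were 2 or more E-boxes. These were the Per1 start, the Nr1d2 intron with 3, and the gene body regions of Dbp and Cry2, all printed above. The D-box was in 4 of 54 regions, 7.41% against 0.745%, at Per2, Per3, Nr1d1 and Nr1d2. An E-box and a D-box occurred together in the intronic regions of Nr1d1 and Nr1d2, and in 18 of the 48179 regions overall. The RORE was in 2 of 54 regions, 3.70% against 0.361%, at Clock and Dbp. A further RORE lay in an Arntl stretch called in replicate 1 alone. Neither the Clock nor the Arntl RORE was under a footprint. The CTCF motif, by contrast, was in 3 of 54 (5.56%) against 9.40%, at Cry2 and Arntl. All 3 lay under a footprint in both libraries, as did 97.6% of the 4561 CTCF matches in all shared regions.

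The layout of these sites differed from gene to gene, measured from the first annotated start. Per1 had E-boxes at −334 and −150, Cry1 an E-box at −50 and an E-prime box at −69, and Per2 a D-box at −125 and an E-prime box at 5. In the Nr1d2 intron the E-boxes stood at 449, 552 and 597 with the D-box at 517 between them, and in the Nr1d1 intron an E-box at 1174 was followed by a D-box at 1246. The stretch of Nr1d1 held a further pair of E-boxes at 1454 and 1469, outside the sequence printed. Dbp had its E-boxes at 2624 and 2737 with the E-prime box at 2686 between them, and Cry2 had E-boxes at 10118 and 10171. The Rev-erb paralogs shared an arrangement in which an E-box and a D-box lie in an intronic region, whereas Cry1 had its E-box before the first exon and Cry2 in an intron.

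E-boxes of the clock gene loci mostly lay under a footprint. Of 13 E-boxes in the windows of the 54 shared regions, 11 overlapped a footprint in replicate 1 and 12 in replicate 2, that is 84.6% and 92.3%, and 10 did in both. Over the 3678 E-boxes in shared regions of the genome the shares were 25.3% and 30.8%. The full stretches of both libraries in the clock gene loci held 15 E-boxes, the Nr1d1 pair at 1454 and 1469 included. Of these 15, 11 were covered in replicate 1 and 13 in replicate 2. Height moves with the share under a footprint. The 54 regions had a median height of 2.18 in replicate 1 and 40 of them were above 1.19, the median of all shared regions. All 8 clock regions with an E-box were 2.45 or higher in replicate 1, and in the 9410 shared regions of at least that height 36.9% and 42.4% of 1098 E-boxes were under a footprint. The part of height in what remains of the difference was not tested. Matches to other motifs in the 54 regions were also more often under a footprint than over all shared regions. The GC box stood at 56.9% and 63.8% against 45.1% and 51.4%, and CCAAT at 35.7% and 39.3% against 23.2% and 26.1%. The RORE, with 2 sites, was lower in replicate 2, at 0% against 20.7%. For D-boxes the counts were 4 and 3 of 5, against 12.3% and 16.4% of 365 overall and 44.8% and 48.3% of 29 in regions of 4.05 or higher.

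**Figure D4:**
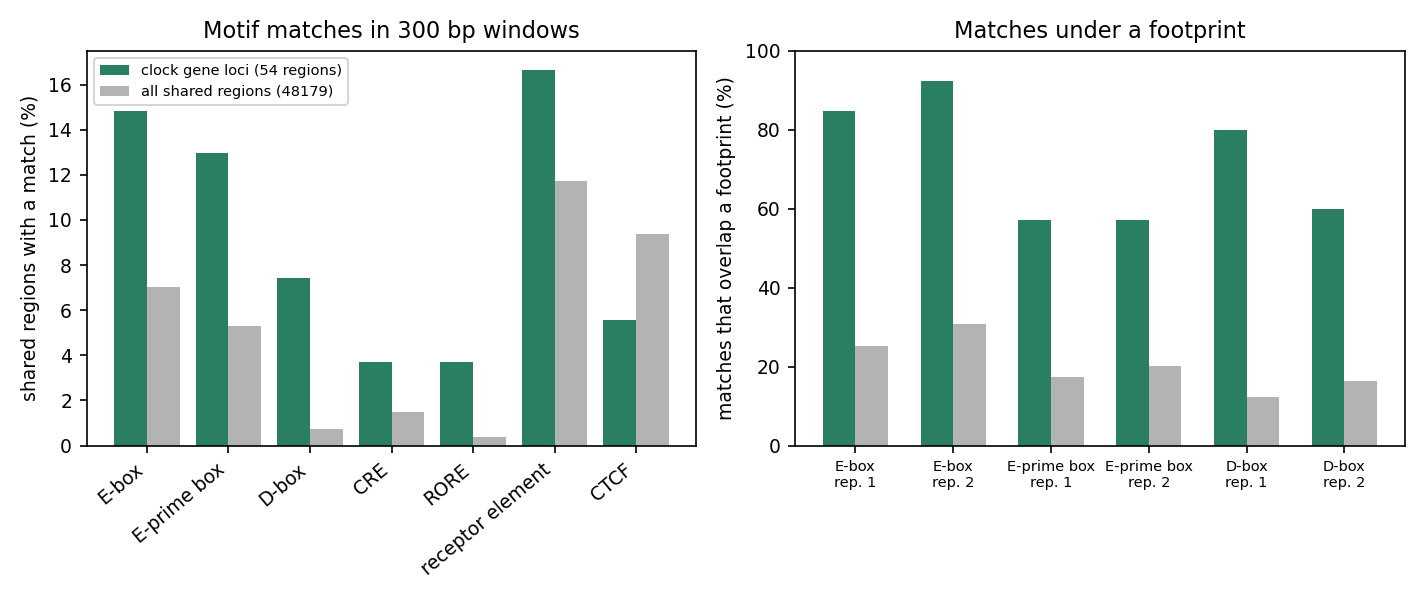
Left, percent of shared regions with a motif match in 300 bp, for the clock gene loci (green) and all shared regions (grey), where the receptor element is AGGTCA; right, percent of E-box, E-prime box and D-box matches that overlap a footprint in each library. The E-box bars under a footprint stand at 84.6% and 92.3% for the clock gene loci, against 25.3% and 30.8%, and the D-box bars rest on 5 sites.

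Site by site, the footprints overlapped in both libraries at the E-boxes of Per1 at −334 and −150, Cry1 at −50, Cry2 at 10118 and 10171, Dbp at 2624 and 2737, and Nr1d1 at −8214 and 1174. At Nr1d2 the site at 597 was covered in both, that at 449 in replicate 2 and that at 552 in replicate 1. The Per1 E-box at 3566 and the Nr1d1 E-box at 1469 were covered in replicate 2 alone, and the Nr1d1 E-box at 1454 in neither library. The D-boxes of Per2 at −125 and of Nr1d1 at 1246 were covered in both. Per3 showed a split between identical sites, with the D-box at −158 covered in both libraries and that at −205 in neither. Of the 7 E-prime boxes 4 were covered in each library, against 17.5% and 20.1% over all shared regions, with that of Cry1 at −69 in neither library although the E-box beside it was covered in both.

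Other genes around the clock were read from lists of 42 genes. The start was accessible in both libraries at 35 of them, against the 59.3% of all genes given above. All 13 loop partners and other clock factors, all 8 kinases, ligase subunits and other regulators, all 8 cofactors and all 5 genes of clock input were open in both. The highest starts among the other clock factors were those of Tef, a D-box factor related to Dbp, with 7.55 and 10.5, of Cipc, an inhibitor of Clock, with 5.96 and 5.10, and of Bhlhe40 (Dec1), a repressor at E-boxes, with 3.74 and 5.82. Most shared regions in a locus were those of Rora with 23, Bhlhe41 with 8 and Bhlhe40 with 7. The Rora locus is long, and its start height was low, 1.17 and 1.47.

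In each library the highest start of these lists belonged to a regulator of clock proteins. Btrc, a ligase subunit that targets Per proteins, had 10.4 and 11.2, the deubiquitinase Usp2 had 9.57 and 11.6, and Csnk1d, the kinase that phosphorylates Per proteins, had 7.50 and 10.3. These exceed every one of the 10 clock genes in both libraries. Among cofactors Wdr5 had 5.21 and 7.60, Nampt 4.39 and 5.69 and Hdac3, which acts with Rev-erb, 4.22 and 4.65. Among input genes Creb1 had 6.47 and 8.64, Sik1 4.48 and 6.86 and Crtc1 4.02 and 5.90. Loci of regulators held at most 3 shared regions, whereas Sirt1 among cofactors and Adcyap1r1 among input genes each held 6. An E-box was in the start window of 5 of the 13 other clock factors, 1 of 8 regulators, 1 of 8 cofactors and 0 of 5 input genes, against 10.3% of all start windows. The counts of the last 3 lists are near that share. Ciart, named after its values were seen, had 3 E-boxes in that window and the spaced pair.

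The list of neurons of the suprachiasmatic nucleus, the central pacemaker outside the hippocampus, was the one list not open throughout. Of its 8 genes 1 was open in replicate 1 and 4 in replicate 2, against 59.6% and 64% of all protein-coding genes, so the count in replicate 2 was not far from that of all genes. Vipr2, the receptor of the peptide Vip, was the one open in both, with 0.679 and 0.792. Vip, Prokr2 and Lhx1 were open in replicate 2 alone, with 0.497, 0.595 and 0.754. The starts of Avp, Prok2, Nms and Six6 had no shorter-list region in either library. In the longer lists 4 of the 8 were open in both libraries.

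**Figure D5:**
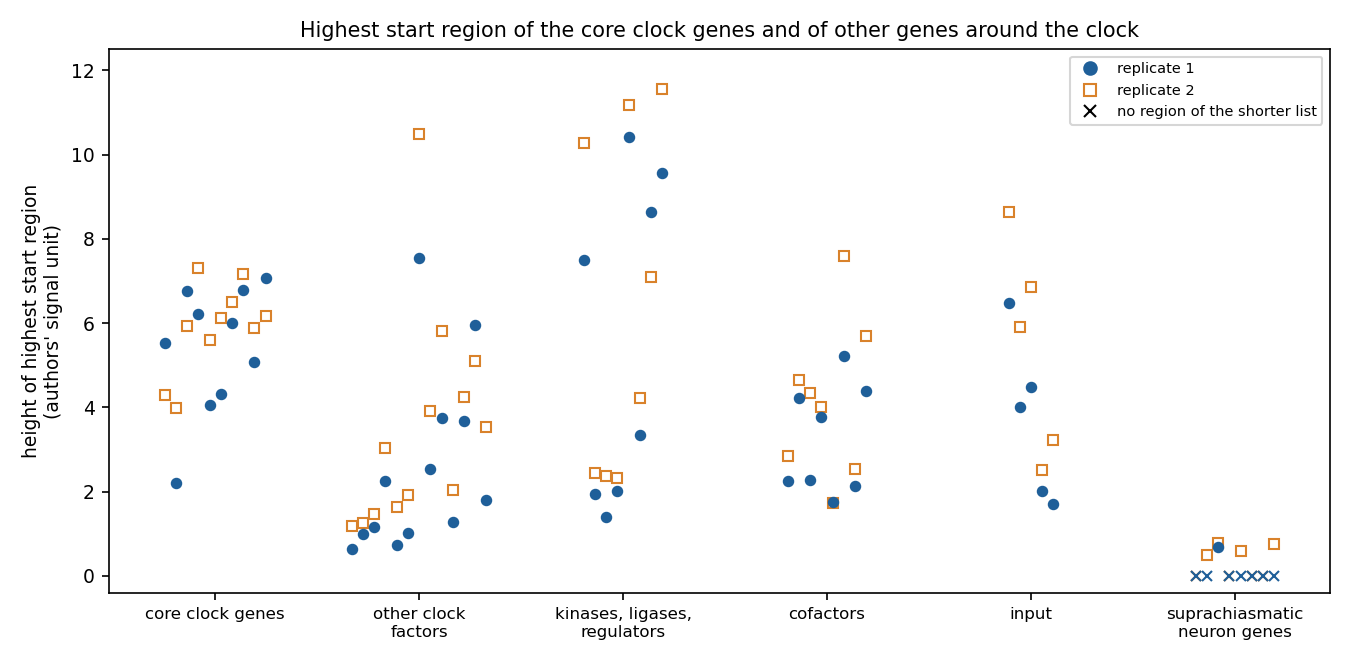
Height of the highest start region (authors' signal unit, vertical axis) of the 10 core clock genes, left, and of the 42 other genes in 5 lists, in replicate 1 (circles) and replicate 2 (squares); crosses at 0 mark genes with no region. The regulators reach 11.6 and the genes of suprachiasmatic neurons stay at 0.792 or lower.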

How the data were processed

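DNase-seq of 2 hippocampal libraries was read from the region, footprint and cut rate files of each library. Per the notes that accompany each deposited sample, region lists are narrowPeak files derived from filtered alignments, and per the labels the assembly is mm10. Neither caller, thresholds nor sequencing depth are stated in the labels, so intervals from depth could not be made. The region height is a signal value that the authors deposited. The footprint lists give 0.01 as the deposited p-value throughout, taken as the authors' limit, and the deposited false discovery rates per base are p-values adjusted by the authors.

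Genes and starts were from GENCODE M21. The shorter list was the main one, and regions were shared where they overlapped by 1 bp or more. The scripts (Python 3.11.15, pysam 0.24.0) were tested on simulated regions. Motifs were searched in RefSeq GRCm38, and the RORE and CTCF motifs carry ambiguous letters. The members and lists were chosen with earlier results of these data known. All 10 members are named, and of each list the genes without an accessible start in at least 1 library, the 3 with the highest starts and up to 3 with most shared regions. Alternatives covered the longer list, the stronger 50% of regions, other distances, loci and overlaps, other motif windows and each library alone. With 1 group, no comparison between conditions and no test was made.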

Additional observations from a re-analysis of the deposited data

How the results depend on the processing

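Of 42 alternative values for 8 results, 38 stayed within 1.5 times or 1 SD of the main ones. The SD, used for heights, percentiles and footprints, was that between the values of each library alone. Those single-library values also count among the alternatives, and they stay within this SD almost by construction. The 10 clock genes had an accessible start under every alternative run, and the list genes open in both libraries numbered 30 to 38, against 35. Neither count could fall with each library alone or at 2500 bp. The rule was made stricter only by the stronger 50% of regions and by a distance of 500 bp. The median of 5.5 shared regions per clock gene locus was 3.5 with no flank and 9.5 with 50 kb, as fewer or more neighbouring bases were counted. An E-box was found at 6 genes rather than 2 when all shared regions of the locus were searched, an alternative chosen after seeing the data. No such count was made over all protein-coding genes, so the 6 have no share beside them. The spaced pair of E-boxes or E-prime boxes occurred at 1 gene, Nr1d1, in 1000 bp windows and at 0 in 300 bp windows. No paired analysis was possible because there is 1 group. With 2 libraries of unknown depth, a region absent from a list was not detected by the authors' caller and is not shown to be closed.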
